A study of Mus musculus with 4 samples.

Results

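Matrix metalloproteinases (MMPs) and their tissue inhibitors (TIMPs) were followed in the 4T07 mouse mammary carcinoma line as 10 genes, taken by symbol from the 24421 genes in the deposited values. They were the 7 metalloproteinase genes Mmp2, Mmp3, Mmp9, Mmp10, Mmp13, Mmp14 and Mmp19 and the 3 inhibitor genes Timp1, Timp2 and Timp3. The question set by the labels was which transcripts differ between control cells and cells made to overexpress the homeobox factor Six2. All libraries were polyadenylated RNA of 4T07 cells (murine mammary carcinoma, strain Balb/cfC3H) grown in serum-containing medium without further treatment and lysed 48 hours after plating. The 2 control libraries carry the genotype label "control" and the other 2 the label "Six2 Overexpression". The sources used here do not give the vector, its promoter, or whether each line was 1 clone or a pool. Nor do the labels say whether replicates were separate cultures, so every p-value sets the group difference against a spread that may be technical.

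MMPs are zinc-dependent endopeptidases that cut the proteins of the extracellular matrix and many cell-surface proteins. Most are secreted as latent proenzymes, held inactive by a cysteine of the propeptide, and become active when that propeptide is removed. TIMPs bind the active site and block it, so the balance of enzyme and inhibitor, together with activation, sets proteolysis around a cell. In mammary tumours these enzymes are known for remodelling basement membrane and stroma, and much of the MMP in a tumour is made by stromal and immune cells. None of the values here measures protein or activity.

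Reads of Six2 numbered 0 and 0 in control and 3 and 0 in the libraries labelled Six2, so groups are named by label throughout. The sources used here do not say whether the introduced sequence would be counted as mouse Six2, so these reads do not show whether it was expressed. Library read totals, recovered from the steps of the values, ran from 41881864 to 81524250 reads, with the highest in Six2-labelled replicate 2. Levels are RPKM, a read density corrected for gene length and library depth, which can be compared between genes. Of 6 markers of carcinoma epithelium 5 reached 1 RPKM in at least 2 libraries, led by the keratin gene Krt8 at 1059 and 742 RPKM in control and at 972 and 607 RPKM in the libraries labelled Six2. Some of these 5, Krt7 and Cdh1 among them, reached 1 RPKM in the control libraries only. Their place among the tested genes is therefore tied to their direction. The 5 tested genes of this list had differences below 0, as had 5554 of all 10654 tested genes. The keratin gene Krt7 was called lower, where 0.0845% of all tested genes were. It was at 10.8 and 8.67 RPKM in control against 0.467 and 0.634 RPKM (limma adjusted p = 0.0397). The adherens junction gene Cdh1 was at 14.6 and 8.4 RPKM in control and at 0.186 and 0.103 RPKM under the Six2 label (limma adjusted p = 0.0592). The leukocyte marker Ptprc had at most 2 reads in a library. Among 9 leukocyte markers with values, S100a8 and Cd68 reached 1 RPKM. The summed level of all 9 was 90.0 and 48.6 RPKM in control and 43.2 and 26.1 RPKM in the libraries labelled Six2. Adgre1 was listed at 0 throughout. Of 8 fibroblast markers only Pdgfra, and of 5 endothelial markers only Tie1, reached 1 RPKM. The part of these cell-type markers in the results was not tested.

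No member passed the main test over all genes, made without the replicate number as a block, in either direction. The stromelysin and collagenase genes Mmp3 and Mmp13 lay higher in both Six2-labelled libraries than in either control library, at 2.09 and 1.83 times the control mean. Timp3, Timp2 and Mmp14 lay lower in both, the control mean being 18.4, 1.41 and 1.16 times the Six2-labelled mean. The other 5 members, Mmp2, Mmp9, Mmp10, Mmp19 and Timp1, had overlapping groups. Over all tested genes, among which Mmp2 and Mmp13 are not, 47.4% lay apart by group, 21.9% higher and 25.5% lower. In RNA from a whole culture, fewer cells expressing a gene and less RNA per cell cannot be told apart.

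In the GENCODE annotation on GRCm38 all 10 members are protein coding. Outside the chromosome 9 cluster described further on, Mmp2 lies at chr8:92827291-92853420, Mmp9 at chr2:164940780-164955850, Mmp14 at chr14:54431612-54445364 and Mmp19 at chr10:128790910-128800824. Timp1 lies at chrX:20870166-20874735, Timp3 at chr10:86300372-86349506 and Timp2, alone on the minus strand, at chr11:118301069-118355740.

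Differences were tested with limma on log2(RPKM + 1), a scale that understates the change of low genes, over the 10654 genes that reached 1 RPKM in 2 or more libraries. Of the 10 members 8 were tested, Mmp2 and Mmp13 being below that level, and 0 had a Benjamini-Hochberg adjusted p under 0.05, with limma-trend and with voom on recovered reads alike. Timp3 reached that level in the control libraries only. Over all genes tested, 0.113% were called, 0.0282% higher and 0.0845% lower. At an unadjusted p under 0.05, Mmp3 was higher and Timp2 and Timp3 lower, where 7.36% of all tested genes were higher and 9.66% lower. Groups did not overlap for 4 of the 8 tested members, 1 higher and 3 lower, against 47.4% of all tested genes, 21.9% higher and 25.5% lower. The median log2 difference was -0.20 for the 8 members and -0.01 for all tested genes.

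**Figure D1:**
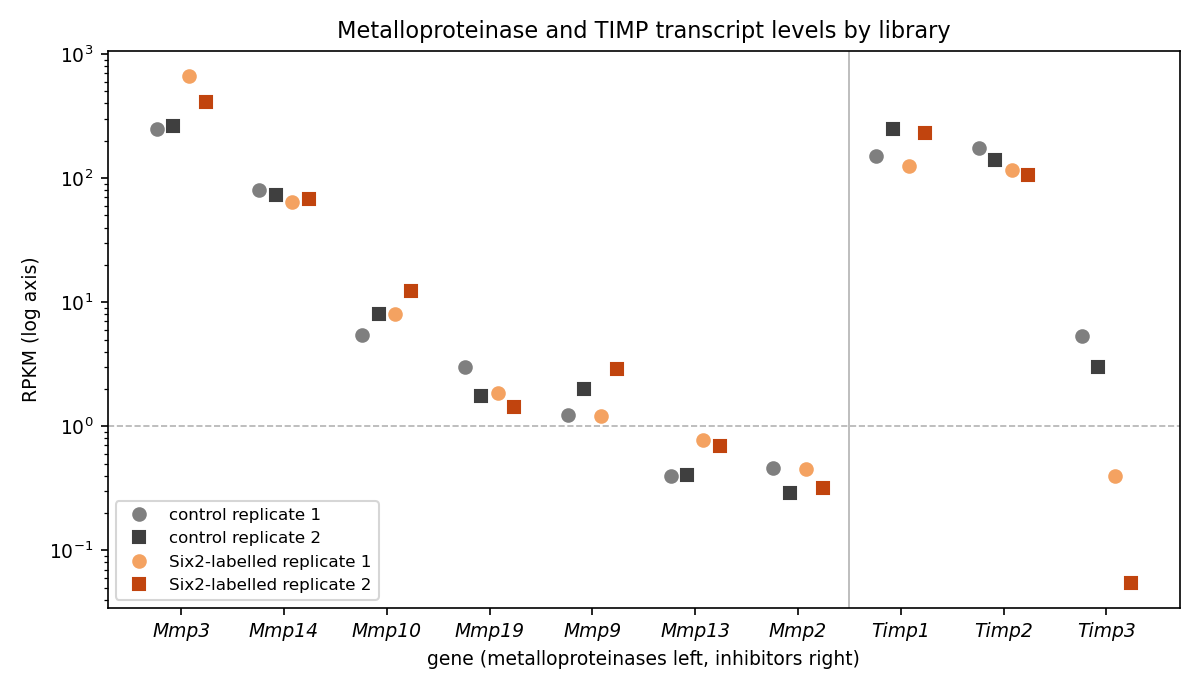
RPKM on a log axis for each member, with 1 point per library, circles for replicate 1 and squares for replicate 2, and a dashed line at 1 RPKM. The 2 Six2-labelled points of Mmp3 (665 and 410 RPKM) lie above the 2 control points, and those of Timp3 (0.398 and 0.0550 RPKM) lie below.

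The upstream sequences of 4 genes are shown, those of Mmp3, Mmp10 and Mmp13 and of their relative Mmp1a. All 4 stand in 1 cluster on chromosome 9 and had a higher mean under the Six2 label. The same holds for Mmp1b, whose window is not shown. The genes shown were picked by their means in these data, so a shared match is no separate result. RefSeq promoter windows on GRCm38.p6 were matched by symbol for 7 of the 10 members, leaving out Mmp2, Mmp9 and Mmp19. Each sequence is the 250 bases before the RefSeq start, 5′ to 3′ on the plus strand, at chr9:7445572-7445821 for Mmp3, chr9:7502092-7502341 for Mmp10, chr9:7272264-7272513 for Mmp13 and chr9:7463891-7464140 for Mmp1a. Capitals mark the AP-1 element TGAGTCA or its reverse complement TGACTCA, and the ETS element AGGAAG or its reverse complement CTTCCT.
Mmp3: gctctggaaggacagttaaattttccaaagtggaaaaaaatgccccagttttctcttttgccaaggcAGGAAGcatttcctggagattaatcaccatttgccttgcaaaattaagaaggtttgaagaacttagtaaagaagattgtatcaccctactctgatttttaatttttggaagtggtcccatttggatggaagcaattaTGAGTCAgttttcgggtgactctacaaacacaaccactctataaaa
Mmp10: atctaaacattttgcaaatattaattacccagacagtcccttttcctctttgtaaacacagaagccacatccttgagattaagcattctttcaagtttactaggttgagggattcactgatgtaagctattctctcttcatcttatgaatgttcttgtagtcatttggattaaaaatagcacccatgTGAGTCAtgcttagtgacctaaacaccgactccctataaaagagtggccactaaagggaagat
Mmp13: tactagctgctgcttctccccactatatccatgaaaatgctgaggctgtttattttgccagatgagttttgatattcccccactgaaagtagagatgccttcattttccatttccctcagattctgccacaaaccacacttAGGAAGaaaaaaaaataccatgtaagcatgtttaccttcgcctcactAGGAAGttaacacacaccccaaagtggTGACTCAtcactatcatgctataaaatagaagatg
Mmp1a: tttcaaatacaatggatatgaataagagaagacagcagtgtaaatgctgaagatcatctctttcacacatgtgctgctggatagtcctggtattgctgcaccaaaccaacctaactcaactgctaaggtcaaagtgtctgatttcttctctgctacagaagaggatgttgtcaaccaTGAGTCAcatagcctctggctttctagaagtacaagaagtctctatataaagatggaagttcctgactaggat

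AP-1 is the dimer of FOS and JUN proteins, and an AP-1 element close to the start is a textbook feature of collagenase and stromelysin promoters. The first base of a match lay 46 bases before the start in Mmp3, 63 in Mmp10, 35 in Mmp13 and 73 in Mmp1a. It was found in 3 of the 7 members with a window, all in the cluster, and not in those of Mmp14, Timp1, Timp2 and Timp3. Of all 32851 promoter windows of this length 4.46% held it. Among cluster genes that are no members, it was also in the window of Mmp1b, at 93 bases. It was as well in those of Mmp7, at 63 bases, and of a second start of Mmp12, at 44 bases, genes with 0 and 9 reads in all libraries together. The ETS element was found in 5 of the 7 members, Mmp3, Mmp13, Mmp14, Timp1 and Timp3, against 29.5% of all windows. A match is a run of letters and not a measured site.

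Mmp3 encodes stromelysin 1, which cuts proteoglycans, laminin and fibronectin and can activate other latent MMPs. It was at 248 and 265 RPKM in control replicates 1 and 2 and at 665 and 410 RPKM in Six2-labelled replicates 1 and 2. Both Six2-labelled libraries lay above both controls, and they differed more from each other than the controls did. The group means were 257 ± 11.8 and 537 ± 180 RPKM (SD, n = 2 per group), and the log2 difference was 1.02 (SE 0.252, limma adjusted p = 0.182). A difference at least this large in size was seen in 2.20% of all tested genes. Mmp3 was the most abundant of the MMP members, 156th of all genes by mean RPKM, and its values rested on 19266 to 60131 reads. Without Six2-labelled replicate 2, the lone library being replicate 1, the difference was 1.37 and passed (limma adjusted p = 0.0333), whereas without Six2-labelled replicate 1 it was 0.67 (limma adjusted p = 0.22).

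Mmp10 encodes stromelysin 2, a close relative of stromelysin 1. Its levels were 5.44 and 8.04 RPKM in the control libraries and 7.96 and 12.3 RPKM in those labelled Six2. The higher control library and the lower Six2-labelled library were nearly level, so the groups overlapped, and in each group the library numbered 2 was the higher. The log2 difference of 0.51 (SE 0.271, limma adjusted p = 0.425) dropped to 0.27 without control replicate 1 and to 0.23 without Six2-labelled replicate 2, and it was 0.80 without Six2-labelled replicate 1. Mmp3 and Mmp10 share sequence: 8.37% of the 50-base words of the Mmp10 transcripts also occur in those of Mmp3, which was 32.9 to 83.5 times more abundant. The sources used here do not say how reads common to both were counted, so the low level of Mmp10 is uncertain.

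Mmp13 encodes collagenase 3, which cleaves fibrillar collagen. It was at 0.399 and 0.402 RPKM in control cells, from 46 and 45 reads. In the libraries labelled Six2 it was at 0.771 and 0.697 RPKM, from 103 and 152 reads. The groups lay apart, and the 95% exact Poisson intervals, which cover counting error only, reached up to 0.537 RPKM in control and down to 0.591 RPKM in the libraries labelled Six2. The level was too low for the main test. With a filter of 1 CPM in at least 2 libraries the log2 difference was 0.31 (limma adjusted p = 0.231), and with no filter it had a limma adjusted p of 0.155.

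Mmp1a and Mmp1b are interstitial collagenase genes of the same cluster that are no members, and Mmp8, the gene of collagenase 2, had 2 reads in all libraries together. Mmp1a was at 1.95 and 2.37 RPKM in control and at 5.94 and 4.35 RPKM in the Six2-labelled libraries. Mmp1b was at 1.99 and 2.43 RPKM in control and at 4.77 and 3.08 RPKM in the Six2-labelled libraries. For each gene the groups lay apart with the higher values under the Six2 label, with log2 differences of 0.95 (SE 0.179, limma adjusted p = 0.143) and 0.60 (SE 0.212, limma adjusted p = 0.276). That of Mmp1b was 0.35 without Six2-labelled replicate 1. Mmp1a and Mmp1b share sequence, with 8.26% of the 50-base words of Mmp1a found in Mmp1b, so their split is uncertain. Mmp1b also shares 157 exon bases with Mmp12 on the opposite strand, a gene with 9 reads in all.

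The gelatinases, which digest denatured collagen and the type IV collagen of basement membrane, were scarce. Mmp9 was at 1.23 and 2.01 RPKM in control and at 1.21 and 2.88 RPKM in the libraries labelled Six2. The spread followed the replicate number, replicate 2 being 1.64 times replicate 1 in control and 2.38 times in the Six2-labelled pair. The log2 difference of Mmp9 was 0.18 (SE 0.333, limma adjusted p = 0.839), and it turned to -0.04 without control replicate 1 and to -0.23 without Six2-labelled replicate 2. Mmp2 was at 0.465 and 0.291 RPKM in control and at 0.455 and 0.319 RPKM in the Six2-labelled libraries, from 37 to 79 reads. Its group means of 0.378 ± 0.124 and 0.387 ± 0.0961 RPKM (SD, n = 2 per group) lay closer to each other than the replicates of either group.

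Mmp14 encodes the membrane-anchored enzyme MT1-MMP, which cuts collagen at the cell surface and, in a complex with TIMP2, activates the latent product of Mmp2. It was at 79.6 and 73.6 RPKM in control and at 64.2 and 67.5 RPKM in the libraries labelled Six2. The Six2-labelled values were both the lower, by a small margin. The log2 difference was -0.22 (SE 0.0967, limma adjusted p = 0.361), a size that 39.2% of all tested genes reached or passed. Mmp14 was the second most abundant MMP member, with 8002 or more reads in each library.

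Mmp19 encodes an MMP of basement membrane and epidermis. It was at 2.99 and 1.76 RPKM in control and at 1.87 and 1.44 RPKM in the Six2-labelled libraries. The values overlapped, and control replicate 1 stood above the other 3 libraries. The log2 difference was -0.33 (SE 0.228, limma adjusted p = 0.537) and was -0.06 without control replicate 1, -0.21 without Six2-labelled replicate 2 and -0.59 without control replicate 2. Its exons overlap those of Tmem198b on the opposite strand over 789 bases in the GENCODE annotation. Tmem198b was at 10.3 and 7.18 RPKM in control and at 10.5 and 8.41 RPKM in the Six2-labelled libraries, and the sources used here do not give the strand setting of the counting, so Mmp19 is uncertain.

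Among the inhibitors, Timp3 encodes the TIMP that binds to the matrix and also inhibits sheddases such as ADAM17. It was at 5.37 and 2.99 RPKM in control replicates 1 and 2, from 1083 and 586 reads. In Six2-labelled replicates 1 and 2 it was at 0.398 and 0.0550 RPKM, from 93 and 21 reads. The highest Six2-labelled value was well below the lowest control value, and the 2 Six2-labelled libraries differed from each other by 7.23 times. Counting error gave 95% exact Poisson intervals of 0.321 to 0.488 and 0.0341 to 0.0841 RPKM in these libraries. The mean was 4.18 ± 1.68 RPKM in control and 0.227 ± 0.243 RPKM in the Six2-labelled group (SD, n = 2 per group), a ratio of 18.4.

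The log2(RPKM + 1) difference of Timp3 was -2.05 (SE 0.292, limma adjusted p = 0.105), and 0.263% of all tested genes differed by as much in size. Because the pseudocount dampens low values, it was -3.89 with a pseudocount of 0.1 and -4.91 with voom, with limma adjusted p = 0.136 and 0.124. Timp3 passed the filter of 1 RPKM through the control libraries alone, where it was high, so its place among the tested genes is tied to its direction. The gene lies inside Syn3, which runs on the opposite strand, and shares 1733 exon bases with it. Syn3 was at 0.0186 RPKM or less in each library, below every value of Timp3. The sources used here do not give the strand setting or how reads in shared bases were counted, so the level of Timp3 is uncertain.

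Timp2 encodes a soluble inhibitor that also takes part in the activation complex with MT1-MMP. It was at 175 and 139 RPKM in control and at 117 and 106 RPKM in the libraries labelled Six2. Both Six2-labelled libraries were lower than both controls. The means were 157 ± 25.8 and 112 ± 7.35 RPKM (SD, n = 2 per group), and the log2 difference was -0.48 (SE 0.148, limma adjusted p = 0.236). It was -0.31 without control replicate 1, the higher of the controls.

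Timp1 encodes the inducible soluble inhibitor. It was at 151 and 250 RPKM in control and at 126 and 230 RPKM in the Six2-labelled libraries. Replicate 2 was the higher in each group, by 1.66 and 1.82 times, and this spread exceeded the difference between groups. The log2 difference was -0.19 (SE 0.39, limma adjusted p = 0.852), and it turned to 0.18 without control replicate 2 and to 0.24 without Six2-labelled replicate 1. Timp1 lies in an intron of Syn1 and shares 0 exon bases with it.

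**Figure D2:**
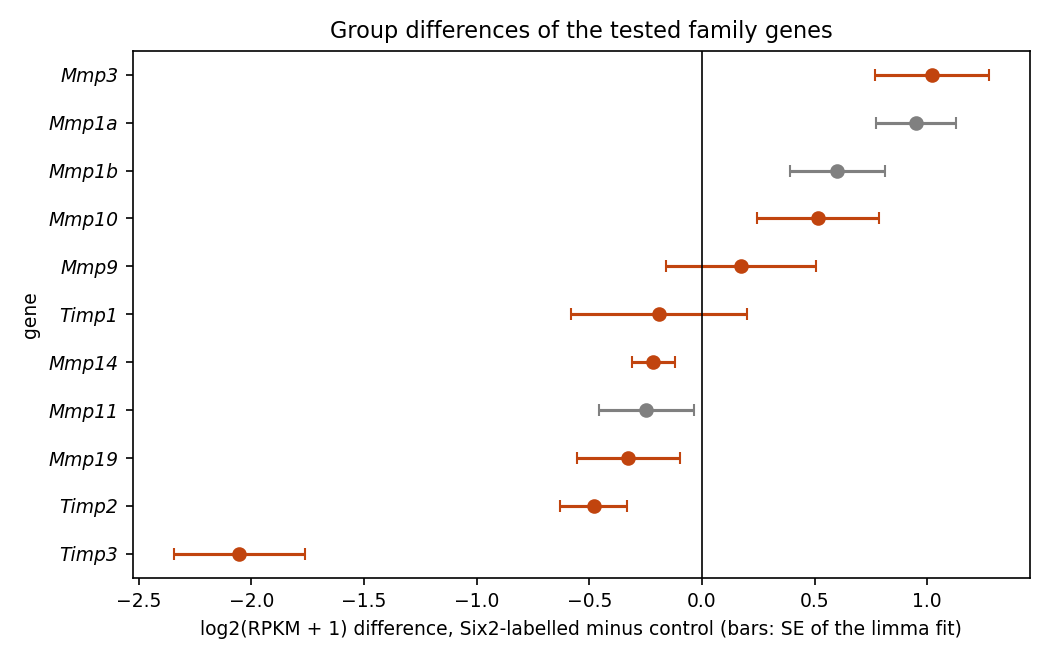
Log2(RPKM + 1) difference, Six2-labelled minus control, of the 8 tested members (red) and of the other tested family genes Mmp1a, Mmp1b and Mmp11 (grey), with bars for the SE of the limma fit. Timp3 at -2.05 lies farthest from 0 and Mmp3 at 1.02 is the highest, and none of these genes had an adjusted p under 0.05.

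Replicates of a group differed in a way that many members repeated in both groups. Within both groups Mmp9, Mmp10 and Timp1 were higher in the library numbered 2, and Mmp2, Mmp19, Timp2 and Timp3 were higher in the library numbered 1. For Mmp3, Mmp13 and Mmp14 the replicates went opposite ways in the 2 groups. Over all tested genes the difference between replicates 1 and 2 correlated between the groups at r = 0.818. With the replicate number as a block, 7 of the 8 tested members were called, where 43.5% of all tested genes were. The labels do not say what a replicate number marks, and the source of this shared spread was not tested.

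Levels per length show which enzymes and inhibitors made up the RNA of the 10 members. Mmp11, Mmp1a and Mmp1b, which are no members, are left out of these shares and orders. Mmp3 held 73.4% and 75.5% of the summed RPKM of the 7 MMP members in control and 89.7% and 82.8% in the libraries labelled Six2. Mmp14 held 23.5% and 21% in control and 8.66% and 13.6% in the Six2-labelled libraries, and the other 5 MMP members made up the small remainder. Of the inhibitor RNA, Timp1 and Timp2 held nearly all, and Timp3 held 1.62% and 0.763% in control and 0.164% and 0.0164% in the Six2-labelled libraries. By mean level in control the order of the 10 members was Mmp3, Timp1, Timp2, Mmp14, Mmp10, Timp3, Mmp19, Mmp9, Mmp13 and Mmp2. By mean level under the Six2 label it was Mmp3, Timp1, Timp2, Mmp14, Mmp10, Mmp9, Mmp19, Mmp13, Mmp2 and Timp3, with Timp3 last. Timp1 and Timp2 as neighbours did not keep an order across libraries, with Timp2 at 1.16 times Timp1 in control replicate 1 and 0.463 times in Six2-labelled replicate 2. Mmp19 and Mmp9 likewise changed places between libraries.

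The summed RPKM of the 7 MMP members was 338 and 351 in control and 741 and 495 in the Six2-labelled libraries. That of the 3 TIMP members was 331 and 392 in control and 243 and 336 in the Six2-labelled libraries. The ratio of MMP to TIMP RPKM was thus 1.02 and 0.896 in control and 3.05 and 1.47 under the Six2 label, with the groups apart. Leaving Mmp3 out, it was 0.272 and 0.220 in control and 0.314 and 0.253 in the Six2-labelled libraries, and the groups overlapped. These ratios describe RNA only, and no test was made of them.

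**Figure D3:**
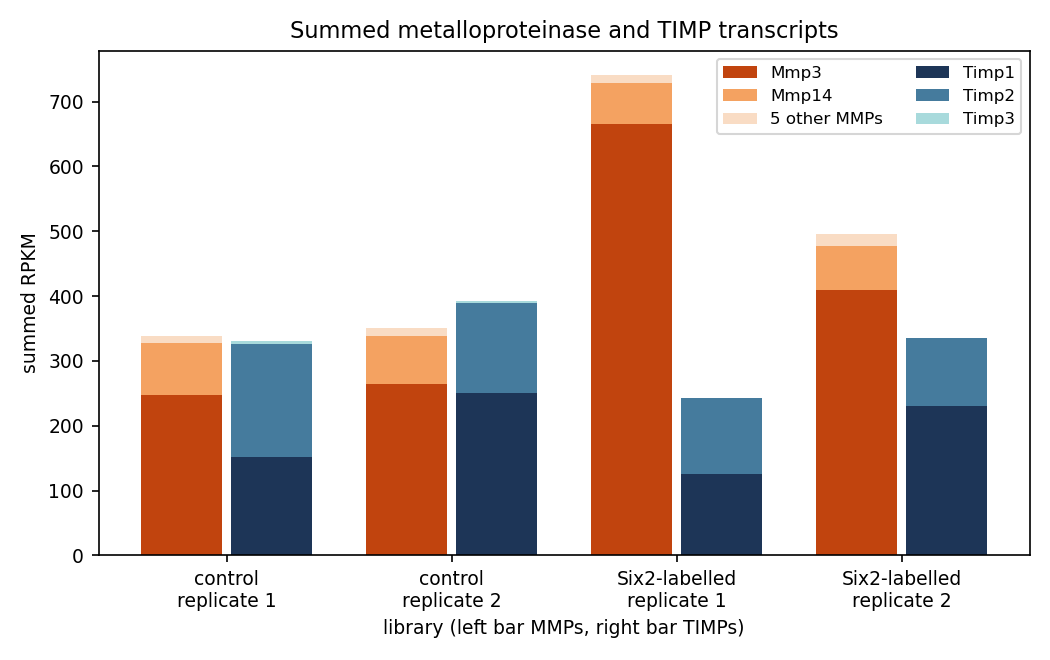
Summed RPKM of the MMP members (left bar) and TIMP members (right bar) in each of the 4 libraries, split by gene. The MMP bars are 338 and 351 RPKM high in control and 741 and 495 RPKM in the Six2-labelled libraries, most of each being Mmp3.

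Mmp3, Mmp10 and Mmp13 belong to a cluster of 10 MMP genes on chromosome 9 (GRCm38, 7272514 to 7699585, a span of 427 kb). Mmp13 lies at 7272514 to 7283331, Mmp3 at 7445822 to 7455975 and Mmp10 at 7502352 to 7510240, all protein coding and on the plus strand. Mmp1b and Mmp1a lie between them, and the annotation classes Mmp1a as a polymorphic pseudogene. Of the 10 genes, 5 had at least 100 reads over the 4 libraries, namely Mmp13, Mmp1b, Mmp3, Mmp1a and Mmp10. The other 5, Mmp12, Mmp8, Mmp27, Mmp20 and Mmp7, had 9 reads or fewer in all.

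The 5 cluster genes with reads, of which 4 have the upstream windows shown above, had a higher mean under the Six2 label, at 1.83 times the control mean for Mmp13, 1.78 for Mmp1b, 2.09 for Mmp3, 2.38 for Mmp1a and 1.5 for Mmp10. For 4 of them the groups lay apart, Mmp10 being the exception, where 21.9% of all tested genes lay apart and higher; Mmp13 is not among the tested genes. Mmp3, Mmp1a, Mmp1b and Mmp13 were highest in Six2-labelled replicate 1, and Mmp10 in replicate 2. Beside the cluster, 7 flanking genes were tested, among them Dcun1d5 (50.6 and 58.0 RPKM in control, 50.1 and 56.4 RPKM under the Six2 label) and the Hippo effector gene Yap1. Their log2 differences lay between -0.67 and 0.23. Where 47.4% of all tested genes lay apart by group, 2 of these 7 did. These were Birc3, an inhibitor of apoptosis gene (2.87 and 2.72 against 1.40 and 1.38 RPKM), and the centrosomal gene Cep126 (1.13 and 1.18 against 1.30 and 1.77 RPKM). The median difference of all 592 tested genes of chromosome 9 was 0.09, and Mmp3 differed by 0.95 once chromosome medians were removed.

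**Figure D4:**
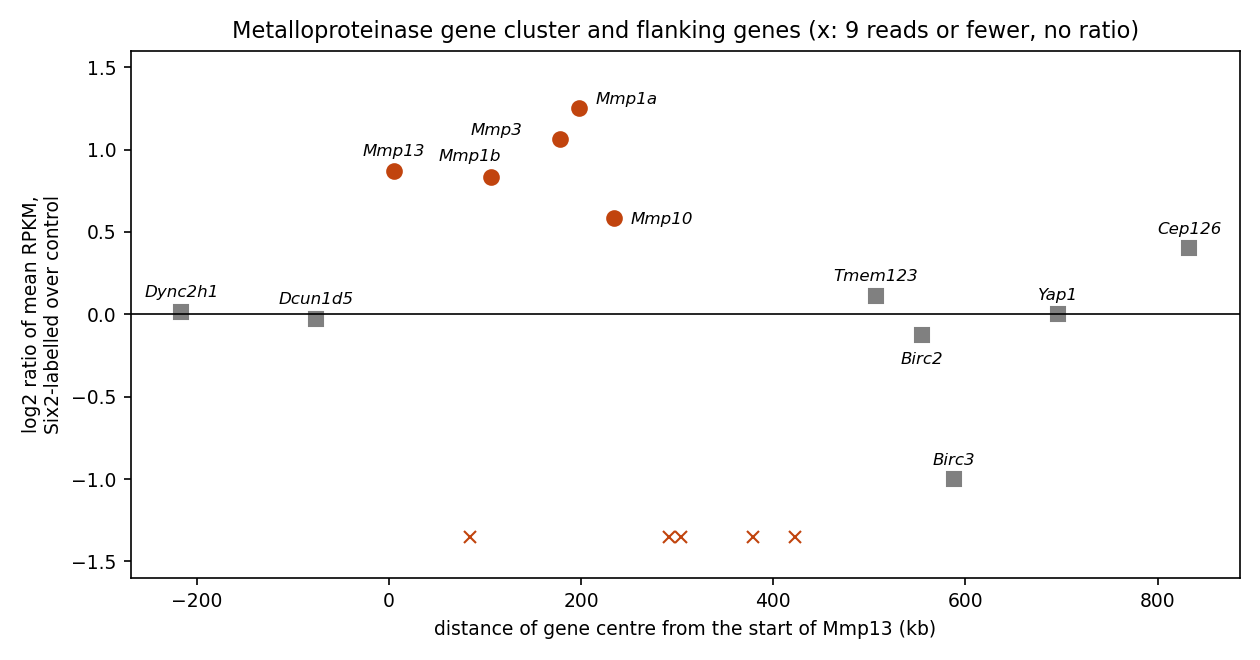
Log2 ratio of mean RPKM, Six2-labelled over control, against the distance of each gene's centre from the start of Mmp13 in kb, for cluster MMP genes (red circles) and flanking genes (grey squares), with crosses for MMP genes of 9 reads or fewer, placed for position only. The 5 MMP genes with reads lie above 0, with ratios of 1.5 to 2.38, and Birc3 has the lowest ratio plotted.

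Of the 17 other family genes, 3 were tested and 0 were called with limma-trend or voom. With limma-trend 0.113% of all tested genes were called. At an unadjusted p under 0.05 there were 2 higher, the Mmp1a and Mmp1b genes given above, where 7.36% of all tested genes were higher. Among the 17, groups lay apart for 2 higher and 4 lower, against 3073 and 4086 of all 24421 genes. The 4 lower ones were below the level tested. Mmp11, which encodes stromelysin 3, was at 5.73 and 3.81 RPKM in control and at 3.42 and 4.20 RPKM under the Six2 label, with overlapping groups (log2 difference -0.25, limma adjusted p = 0.625). Its difference was -0.003 without control replicate 1, -0.13 without Six2-labelled replicate 1 and -0.49 without control replicate 2. Mmp28, which encodes epilysin, was below the level tested, at 1.42 and 0.506 RPKM in control and at 0.763 and 0.414 RPKM in the Six2-labelled libraries. Mmp7, Mmp16, Mmp17 and Mmp20 were listed at 0 in all 4 libraries.

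Around the members, 5 lists of genes that activate, clear, induce or are cut by MMPs, or are bound by TIMP3, held 57 genes, of which 36 were tested. With limma-trend 0 were called, as with voom, and at an unadjusted p under 0.05 there were 2 higher and 9 lower, where 7.36% and 9.66% of all tested genes were. Groups lay apart for 8 higher and 12 lower, against 21.9% and 25.5% of all tested genes, and the median log2 difference was -0.06, against -0.01 for all tested genes.

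Among 9 activators of latent MMPs, 5 were tested. Their groups lay apart for 1 higher and 1 lower, against 21.9% and 25.5% of all tested genes. Plat, which encodes tissue plasminogen activator, was at 11.8 and 6.37 RPKM in control and at 3.53 and 3.01 RPKM in the libraries labelled Six2 (log2 difference -1.19, limma adjusted p = 0.183), and its difference was -0.79 without control replicate 1. Pcsk7, a proprotein convertase gene, was at 7.70 and 7.82 against 8.85 and 8.10 RPKM. The urokinase receptor gene Plaur, the most abundant of the list, was at 157 and 219 RPKM in control and at 146 and 193 RPKM under the Six2 label, with overlapping groups.

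Of 7 other inhibitors and clearance genes, 4 were tested and all 4 lay apart by group, 2 higher and 2 lower. Over all tested genes 47.4% lay apart, 21.9% higher and 25.5% lower. Reck, which encodes a membrane-anchored inhibitor of MMPs, was at 0.738 and 0.447 RPKM in control and at 1.53 and 1.16 RPKM in the Six2-labelled libraries (log2 difference 0.56, limma adjusted p = 0.234). It passed the filter of 1 RPKM through the Six2-labelled libraries only. Lrp1, whose product takes up MMPs and TIMPs by endocytosis, was at 59.2 and 57.1 RPKM in control and at 45.3 and 41.5 RPKM under the Six2 label (log2 difference -0.42, limma adjusted p = 0.175). Thbs1, the thrombospondin 1 gene, was at 78.3 and 41.4 against 33.8 and 19.1 RPKM (log2 difference -1.13, limma adjusted p = 0.291). The difference of Thbs1 was -0.68 without control replicate 1 and -0.74 without Six2-labelled replicate 2.

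Of 21 inducers and transcription factors, 15 were tested. Groups lay apart for 2 higher and 6 lower, against 21.9% and 25.5% of all tested genes. Of 6 tested AP-1 subunit genes on the list, Jund, Fosl2 and Fosb lay apart and lower under the Six2 label, and Fosl1, Jun and Junb had overlapping groups. Jund was at 33.4 and 31.5 RPKM in control and at 18.4 and 17.4 RPKM in the Six2-labelled libraries (log2 difference -0.82, limma adjusted p = 0.0937). Fosl2 was at 19.7 and 24.6 against 12.1 and 15.2 RPKM (limma adjusted p = 0.199), and the NF-kappaB subunit gene Rela was at 29.8 and 27.7 against 22.3 and 22.5 RPKM (limma adjusted p = 0.205). The difference of Rela was -0.345, and -0.198 with chromosome medians removed. Nfkb1, the other NF-kappaB subunit gene listed, lay apart and higher, at 25.5 and 26.3 against 28.2 and 32.5 RPKM (limma adjusted p = 0.416). Fosl1, the most abundant AP-1 gene, was at 92.6 and 155 RPKM in control and at 103 and 200 RPKM under the Six2 label (log2 difference 0.26, limma adjusted p = 0.805). Fosb, Fosl1, Jun, Junb and Nfkb1 were named after their values were seen. Bsg, which encodes the MMP inducer basigin, was the most abundant of the list at 268 and 259 RPKM in control and 310 and 286 RPKM under the Six2 label.

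Of 14 matrix and surface substrates, 7 were tested. Groups lay apart for 1 higher and 2 lower, against 21.9% and 25.5% of all tested genes. The fibronectin gene Fn1, whose product stromelysin cuts, was at 667 and 407 RPKM in control and at 287 and 206 RPKM in the Six2-labelled libraries (log2 difference -1.10, limma adjusted p = 0.204). Tnc, the tenascin C gene, was at 3.03 and 6.64 RPKM in control and at 8.47 and 9.21 RPKM under the Six2 label (log2 difference 0.83, limma adjusted p = 0.32). The difference of Tnc was 0.36 without control replicate 1 and 1.29 without control replicate 2. Spp1, the osteopontin gene, was at 5743 and 3335 RPKM in control and at 5678 and 3355 RPKM under the Six2 label, so its spread followed the replicate number.

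Of 6 other proteases that TIMP3 binds, 5 were tested. Groups lay apart for 2 higher and 1 lower, against 21.9% and 25.5% of all tested genes. Adam17, the sheddase gene, was at 17.3 and 18.4 RPKM in control and at 22.9 and 22.2 RPKM in the libraries labelled Six2 (log2 difference 0.32, limma adjusted p = 0.226). The aggrecanase gene Adamts4 was at 3.57 and 2.95 against 6.97 and 4.10 RPKM (limma adjusted p = 0.345), and Adamts1 was at 6.27 and 6.61 against 4.95 and 4.88 RPKM (limma adjusted p = 0.24). The log2 differences of Adamts4 and Adamts1 were 0.586 and -0.330. The median differences of their chromosomes were 0.323 and -0.218, and that of the chromosome of Adam17 was 0.247. With chromosome medians removed, Adam17, Adamts4 and Adamts1 differed by 0.083, 0.270 and -0.104. The part of these chromosome medians was not tested. Adam10, the most abundant of the list, had overlapping groups, at 45.5 and 38.4 RPKM in control and at 47.3 and 41.7 RPKM under the Six2 label.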

How the data were processed

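RNA of 4 libraries was analysed, 2 control and 2 labelled Six2, grouped by their titles. The authors deposited RPKM values for 24421 genes, per the file headers and name. Per the submitters' processing notes, GRCm38 and mm10 were the builds, and HTSeq 0.8.0, TopHat2 2.1.1 with Bowtie2, Picard 2.9.4, FastQC 0.11.5, SAMtools 1.5 and bcl2fastq 1.8.4 the tools. The sources used here give neither annotation, gene lengths nor strand setting.

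Whole reads and read totals (43110985, 41881864, 49910629 and 81524250) were recovered from the value steps; 14459 of 14459 genes above 0 in at least 3 libraries came out whole within 0.001 reads. A factor shared by reads and length may understate reads. The limit behind a listed 0 is 3 reads, on 1 kb 0.0368 to 0.0716 RPKM.

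limma 3.58.1 in R 4.3.3 fitted log2(RPKM + 1) on group with a variance trend, two-sided, for genes reaching 1 RPKM in 2 or more libraries. The p-values were adjusted by Benjamini-Hochberg over all 10654 genes tested. The fit was tested on simulated data. The 13 alternatives changed pseudocount, filter, scaling, model, chromosome medians, replicate block or left out 1 library. The members and lists were chosen with earlier results of these data known. Named were all members, other family genes with a mean of at least 0.5 RPKM in either group, and from each list up to 3 tested genes with the largest difference and groups apart plus the most abundant; 1 gene that this rule names is not reported here. Intervals are exact Poisson at 95%, from scipy 1.17.1. Positions and overlaps come from GENCODE M21 (GRCm38), which placed 96.3% of tested genes by symbol.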

Additional observations from a re-analysis of the deposited data

How the results depend on the processing

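Members kept their direction and stayed on the same side of the threshold in 91 of 96 values over the alternatives without a block. The exceptions were Mmp3, which passed without Six2-labelled replicate 2, and Mmp9 and Timp1, whose differences changed sign when 1 library was left out (-0.23 to 0.58 for Mmp9 and -0.62 to 0.24 for Timp1). The cause was not tested.

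Over all genes, the 3 higher and 9 lower calls became 0 and 0 with no filter on low values (smallest limma adjusted p = 0.0519, with an unadjusted p under 0.05 for 2503 of 16679 genes). They became 4 and 29 with a filter of 1 CPM in at least 2 libraries, and 4 and 31 with no variance trend. Leaving out 1 library gave 2 to 18 higher and 9 to 50 lower, with a lone library assumed to vary like the other group. Of the genes named around the members, Spp1, at -0.004 as reported, differed by 0.013 with TMM factors, 0.016 with relative log expression factors, 0.006 with voom and 0.057 with chromosome medians removed. With 1 library left out, differences spanned 0 for Spp1 (-0.396 to 0.388), Plaur (-0.383 to 0.092), Adam10 (-0.033 to 0.206), Dcun1d5 (-0.122 to 0.069) and Araf (-0.160 to 0.002).

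The labels do not say that a replicate number marks a shared culture or day, but the difference between replicates 1 and 2 correlated across genes between the groups at r = 0.818. With the replicate number as a block, 2133 genes were higher and 2506 lower, 43.5% of those tested, and 7 of the 8 tested members were called, all but Mmp9. In that blocked fit the limma adjusted p was 0.0019 for Mmp3, 0.000917 for Mmp10 and 2.91e-05 for Timp3.

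Depth limits Mmp2, Mmp13 and the Six2-labelled values of Timp3, which rest on 21 to 152 reads a library.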
